A study of Mus musculus with 12 samples.

Results

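The 9 genes described here encode enzymes that make serine and move its 1-carbon unit through folate: Phgdh, Psat1 and Psph of serine synthesis, the serine hydroxymethyltransferases Shmt1 and Shmt2, the folate-interconverting enzymes Mthfd1, Mthfd2 and Mthfd1l, and Tyms, which makes thymidylate. They were chosen by name, as array rows carrying only that gene symbol, and all 9 were among the 19937 genes tested. Affymetrix Mouse Gene 1.0 ST arrays gave their messenger RNA levels in 4 untreated populations, which were sorted by flow cytometry from C57BL/6 mouse bone marrow and put on 3 arrays each, 12 in all. LSK cells, labelled hemopoietic stem cells, are lineage-negative cells with Sca1 and cKit on their surface and include stem cells as well as early progenitors. The other populations follow each other in neutrophil formation, as promyelocytes, then myelocytes, then granulocytes, and were separated by their own surface antigens. The labels call the 3 arrays of a stage biological replicates without saying whether they came from separate animals or from pools. The spread behind each p-value may therefore not be that between single animals. The sorted fractions were whole populations, and in such bulk RNA fewer expressing cells and less message per cell cannot be told apart.

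Phgdh oxidises 3-phosphoglycerate, an intermediate of glycolysis, and Psat1 and Psph convert the product to serine. The serine hydroxymethyltransferases then split serine into glycine and a 1-carbon unit carried on tetrahydrofolate, Shmt1 in the cytosol and Shmt2 mainly in mitochondria. Mitochondrial Mthfd2 and Mthfd1l oxidise the unit and release it as formate, and cytosolic Mthfd1 returns formate to folate for purine and thymidylate synthesis. Proliferating cells use these products to build DNA and RNA, and granulocytes no longer divide.

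In short, 7 of the 9 messages fell between promyelocytes and myelocytes, a step at which 9.87% of all genes were called lower. That of Mthfd2 had higher means in promyelocytes (7.21) and myelocytes (7.36) than in LSK cells (6.36), though these differences were not called. It fell at the granulocyte step, to 5.68. The promoter windows of 3 genes that stand for these time courses are shown, chosen after their values were seen: Shmt2, whose stage means spanned the widest range, Mthfd2, the exception at the myelocyte step, and Tyms, whose larger fall came at the granulocyte step. Each runs from 250 bases before to 50 bases after a RefSeq gene start in GRCm38.p6 and is written 5′ to 3′ along the gene. Capitals mark matches to 1 of 3 motifs searched on both strands, where N is any base. Of these, CACGTG is the E-box bound by Myc with Max, and TGATGNAA the amino acid response motif bound by Atf4 with C/EBP factors. The third, TTTNNCGC, is a loose form of the E2F motif.
Shmt2, chr10:127522395-127522694, minus strand: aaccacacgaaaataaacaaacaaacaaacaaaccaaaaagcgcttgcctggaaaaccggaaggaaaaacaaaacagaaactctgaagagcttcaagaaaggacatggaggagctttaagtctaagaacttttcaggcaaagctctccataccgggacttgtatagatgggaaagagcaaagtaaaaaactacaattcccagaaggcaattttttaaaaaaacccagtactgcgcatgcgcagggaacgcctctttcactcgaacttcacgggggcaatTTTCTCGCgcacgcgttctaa
Mthfd2, chr6:83317555-83317854, minus strand: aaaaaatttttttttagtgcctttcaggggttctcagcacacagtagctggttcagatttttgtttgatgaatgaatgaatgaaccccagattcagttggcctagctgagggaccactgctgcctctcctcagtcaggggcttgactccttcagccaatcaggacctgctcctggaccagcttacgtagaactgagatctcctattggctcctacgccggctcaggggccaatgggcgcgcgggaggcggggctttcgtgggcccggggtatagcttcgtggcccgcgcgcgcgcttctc
Tyms, chr5:30073576-30073875, minus strand: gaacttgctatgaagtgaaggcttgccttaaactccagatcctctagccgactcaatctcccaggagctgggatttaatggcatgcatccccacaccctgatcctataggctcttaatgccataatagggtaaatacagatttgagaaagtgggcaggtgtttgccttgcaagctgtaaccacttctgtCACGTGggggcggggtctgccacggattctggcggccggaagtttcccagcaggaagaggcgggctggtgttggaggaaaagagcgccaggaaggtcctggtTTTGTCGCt

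The Tyms window held CACGTG from -61 to -56 of the start and TTTGTCGC from 42 to 49 after it. In the Shmt2 window, TTTCTCGC lay from 30 to 37, and the Psph window held TTTACCGC from -199 to -192. None of the 10 windows of the 9 genes (Psat1 has 2) held TGATGNAA, and the windows of Phgdh, Psat1, Shmt1, Mthfd1, Mthfd2 and Mthfd1l held none of the 3 motifs. Across all 32851 windows of this length, 7.15% held CACGTG, 3.97% held TGATGNAA and 5.17% held TTTNNCGC. The GC content of the 10 windows ran from 42.7% (Shmt2) to 66.7% (1 of the Psat1 windows), against a median of 52.7% over all windows, and 8 of the 10 lay above that median. They held 8 to 30 CpG dinucleotides each, against a median of 7. A match is a run of letters and not a measured binding site.

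Levels are given as deposited, on the log2 scale, where 1 unit is a factor of 2. A change was called where limma's moderated test over all genes gave a Benjamini-Hochberg adjusted p under 0.05 and the fold was at least 2, the fold that the study's methods used. As a guide to background, the 95th percentile of the mean level of 1194 olfactory and vomeronasal receptor genes was 4.51, here called the dim level. Array medians lay between 4.96 and 5.12, arrays of 1 stage correlated at 0.981 to 0.991 over all genes, and the median within-stage SD was 0.21. Markers were read against the stage labels. Kit, Cd34 and Ly6g, which are among them, correspond to antigens used in the sorts (cKit, CD34 and Gr-1), so their levels are not an independent check. The log2 of the summed signal of 6 LSK marker genes was 12.75 to 13.15 in LSK cells and at most 11.92 elsewhere. That of 5 promyelocyte markers was 13.82 to 14.40 in promyelocytes, 11.28 to 13.52 in LSK cells and 10.63 to 10.76 in myelocytes. Only 3 of these 5 were called higher in promyelocytes than in LSK cells, and all 5 were called lower in myelocytes. The sum of 5 myelocyte markers was 15.20 to 15.32 in myelocytes against 10.29 to 11.68 in promyelocytes. The myelocyte markers stayed at 14.84 to 15.10 in granulocytes and none was called between the last stages, but 5 granulocyte markers summed to 13.17 to 13.44 in myelocytes and 14.48 to 14.57 in granulocytes, and 3 of these were called higher there.

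**Figure D1:**
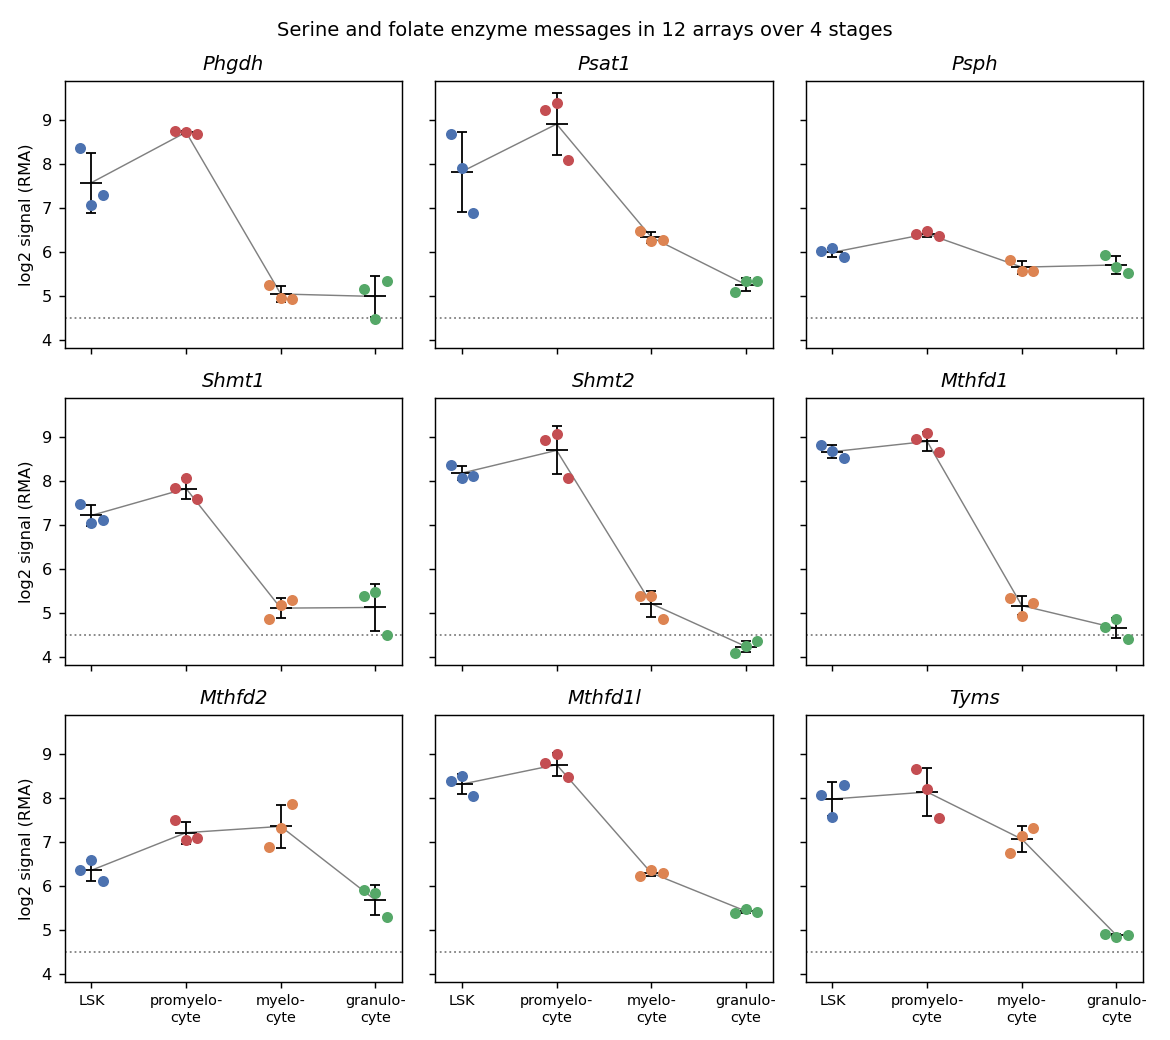
Log2 signal of each of the 9 enzyme messages (y axis) on the 12 arrays, by stage (x axis). Points are arrays, bars are the mean ± SD of 3 arrays, the grey line joins the means and the dotted line is the dim level of 4.51. The Shmt2 points of granulocytes lie under that line, Mthfd2 is highest in myelocytes and Psph hardly leaves the band from 5.53 to 6.48.

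Each of the 9 genes differed among the 4 stages (limma F test, adjusted p from 6.41e-12 for Mthfd1 to 0.000955 for Psph), as did 54.0% of all genes tested. The range of the stage means was 4.45 for Shmt2, 4.24 for Mthfd1, 3.72 for Phgdh, 3.64 for Psat1, 3.32 for Mthfd1l, 3.25 for Tyms, 2.71 for Shmt1, 1.67 for Mthfd2 and 0.75 for Psph, against a median of 0.60 over all genes. The first 6 of these lay between percentile 95.9 (Tyms) and 98.8 (Shmt2) of all genes, Shmt1 at 92.9, Mthfd2 at 81.3 and Psph at 58.2. Promyelocytes had the highest mean for 8 genes, and myelocytes for Mthfd2.

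Serine synthesis opens with Phgdh, which catalyses its first step. On the LSK arrays Phgdh read 8.35, 7.08 and 7.30, and on the promyelocyte arrays 8.76, 8.72 and 8.68. In myelocytes the values were 5.25, 4.96 and 4.94, and in granulocytes 5.16, 4.47 and 5.35. Every promyelocyte array was above every LSK array, the myelocyte and granulocyte values overlapped, and 1 granulocyte array was under the dim level. Phgdh rose by 1.14 ± 0.28 (SE, n = 3 per stage) from LSK cells to promyelocytes (2.21-fold, limma adjusted p = 0.0114) and then fell by 3.67 ± 0.28 (12.7-fold, adjusted p = 4.37e-08). The last step was -0.06 ± 0.28 (adjusted p = 0.907). The rise rested on the row chosen and on single arrays: it was 0.89 (adjusted p = 0.0606) without LSK array 2 and 1.00 (adjusted p = 0.0643) without LSK array 3. A second array row, shared between Phgdh and the predicted gene Gm6756, gave 0.24 ± 0.23 (adjusted p = 0.569) for the rise and -3.28 ± 0.23 (adjusted p = 2.03e-08) for the fall, so that the fall was called on both rows and the rise on 1.

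Psat1, the transaminase of the second step, read 8.69, 7.90 and 6.89 in LSK cells and 9.23, 9.38 and 8.10 in promyelocytes. It read 6.48, 6.26 and 6.27 in myelocytes and 5.10, 5.36 and 5.34 in granulocytes. LSK cells and promyelocytes overlapped, and the LSK arrays had the widest spread of any stage of the 9 genes (SD 0.90). The promyelocyte mean was 1.08 ± 0.36 above the LSK mean and did not pass the test (adjusted p = 0.066). Psat1 fell by 2.56 ± 0.36 at the myelocyte step (5.92-fold, adjusted p = 3.4e-05) and by a further 1.08 ± 0.36 at the granulocyte step (2.11-fold, adjusted p = 0.0461). This second fall stood at the edge of the test: with each of 4 other scalings of the arrays the adjusted p was 0.0536 to 0.0797, and it also exceeded the threshold without LSK array 2 or without any 1 of the myelocyte or granulocyte arrays (0.0609 to 0.134).

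Psph, which removes the phosphate in the last step, was the least variable of the group. Its values were 6.02, 6.09 and 5.88 in LSK cells, 6.40, 6.48 and 6.36 in promyelocytes, 5.83, 5.58 and 5.57 in myelocytes and 5.95, 5.65 and 5.53 in granulocytes. The promyelocyte arrays lay above all 9 others, by a small margin. The myelocyte step was -0.75 ± 0.14 (1.69-fold, adjusted p = 0.000519), which passed the p threshold and not the fold. Thus the first and second enzymes of the route fell at the myelocyte step while the change of the third stayed under a factor of 2.

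Shmt1, the cytosolic serine hydroxymethyltransferase, read 7.49, 7.05 and 7.11 in LSK cells and 7.84, 8.06 and 7.59 in promyelocytes. It read 4.87, 5.19 and 5.30 in myelocytes and 5.40, 5.48 and 4.52 in granulocytes. Shmt1 fell by 2.71 ± 0.23 at the myelocyte step (6.55-fold, adjusted p = 1.55e-07) and the last step was 0.02 ± 0.23 (adjusted p = 0.969), with overlapping arrays. Shmt2, its mitochondrial relative, read 8.36, 8.07 and 8.10 in LSK cells and 8.94, 9.07 and 8.07 in promyelocytes, and then 5.40, 5.38 and 4.88 in myelocytes and 4.11, 4.26 and 4.37 in granulocytes. All 3 granulocyte arrays were under the dim level. Shmt2 fell by 3.47 ± 0.23 at the myelocyte step (11.1-fold, adjusted p = 9.15e-09). Promyelocytes stood at least 18.2-fold above granulocytes and LSK cells at least 12.8-fold, taking the dim level in place of the granulocyte mean (adjusted p = 2.38e-10 and 9.1e-10).

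Mthfd1, the cytosolic enzyme with 3 activities, read 8.81, 8.67 and 8.51 in LSK cells and 8.94, 9.09 and 8.66 in promyelocytes. In myelocytes it read 5.34, 4.94 and 5.24, and in granulocytes 4.68, 4.88 and 4.43, the last of these under the dim level. LSK cells and promyelocytes overlapped, and both lay far above every later array. Its fall of 3.72 ± 0.17 at the myelocyte step (13.2-fold, adjusted p = 1.9e-10) was the largest of the 9 genes at that step, and the granulocyte step of -0.51 ± 0.17 passed the p threshold (adjusted p = 0.0379) and not the fold.

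Mthfd1l, the mitochondrial formate-releasing enzyme, read 8.39, 8.50 and 8.05 in LSK cells and 8.80, 8.99 and 8.47 in promyelocytes. It read 6.23, 6.37 and 6.30 in myelocytes and 5.40, 5.49 and 5.42 in granulocytes. LSK cells and promyelocytes overlapped, the later stages did not, and the spread within them was small (SD 0.07 in myelocytes and 0.05 in granulocytes). Mthfd1l fell by 2.46 ± 0.16 at the myelocyte step (5.49-fold, adjusted p = 8.09e-09), and the granulocyte step of -0.87 ± 0.16 (1.82-fold, adjusted p = 0.000799) did not reach the fold. From promyelocytes to granulocytes it fell by 3.32 ± 0.16 (9.99-fold, adjusted p = 1.22e-10). The study listed this gene, on these same samples, among predicted miRNA targets lower in granulocytes, so the last value is not independent evidence.

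Mthfd2, which carries out the mitochondrial step before Mthfd1l, followed another course. It read 6.37, 6.59 and 6.12 in LSK cells and 7.50, 7.04 and 7.10 in promyelocytes. In myelocytes it read 6.88, 7.31 and 7.87, and in granulocytes 5.90, 5.85 and 5.30. Promyelocytes and myelocytes overlapped and both lay above all LSK and granulocyte arrays. The promyelocyte rise of 0.85 ± 0.24 (1.81-fold, adjusted p = 0.0248) passed the p threshold and not the fold. The myelocyte step was 0.14 ± 0.24 (95% interval -0.36 to 0.64, adjusted p = 0.721), and its sign turned (-0.12) without myelocyte array 3. Myelocytes stood 0.99 ± 0.24 above LSK cells (1.99-fold, adjusted p = 0.00298), just under the fold threshold, and with each of the 4 other scalings the difference was 1.00 to 1.15 and was called. Mthfd2 then fell by 1.67 ± 0.24 at the granulocyte step (3.18-fold, adjusted p = 8.63e-05).

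Basophil and mast cell genes also differed among the stages. The log2 of the summed signal of 9 such markers was 8.26 to 9.47 in LSK cells, 11.21 to 12.61 in promyelocytes, 12.28 to 14.05 in myelocytes and 11.57 to 11.81 in granulocytes, with 5, 2, 1 and 6 of the 9 at or under the dim level. Among the defining markers, the basophil protease Mcpt8 had stage means of 6.25, 9.55, 10.94 and 5.87 in this order, and the IgE receptor chain Fcer1a 3.28, 5.34, 8.38 and 3.39. The histamine-forming enzyme Hdc, at 7.30, 9.74, 11.17 and 11.56, was highest in granulocytes, where it made up most of the sum. From promyelocytes to granulocytes 5 of the 9 were called lower and 1, Hdc, higher, and at the granulocyte step 6 were called lower and none higher. Within myelocytes the marker sum was 14.05, 13.16 and 12.28 on arrays 1 to 3, and Mthfd2 read 6.88, 7.31 and 7.87. Mki67 (9.47, 10.45 and 10.49) and Tyms (6.74, 7.15 and 7.31) also rose over these arrays. The order of 3 arrays cannot tell such differences apart. The part of basophils and mast cells in the levels of Mthfd2 was not tested.

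Tyms, thymidylate synthase, consumes the 1-carbon unit to make the DNA precursor dTMP. Its arrays read 8.06, 7.56 and 8.30 in LSK cells and 8.65, 8.21 and 7.55 in promyelocytes. They read 6.74, 7.15 and 7.31 in myelocytes and 4.91, 4.86 and 4.89 in granulocytes. LSK cells and promyelocytes overlapped, myelocytes lay between, and the granulocyte arrays were lowest with an SD of 0.03. Tyms fell by 1.07 ± 0.25 at the myelocyte step (2.10-fold, adjusted p = 0.00256), and by 2.18 ± 0.25 at the granulocyte step (4.53-fold, adjusted p = 1.18e-05). The first of these falls was under the fold without promyelocyte array 1 (-0.81), without myelocyte array 1 (-0.91) and after cyclic loess scaling (-0.93).

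**Figure D2:**
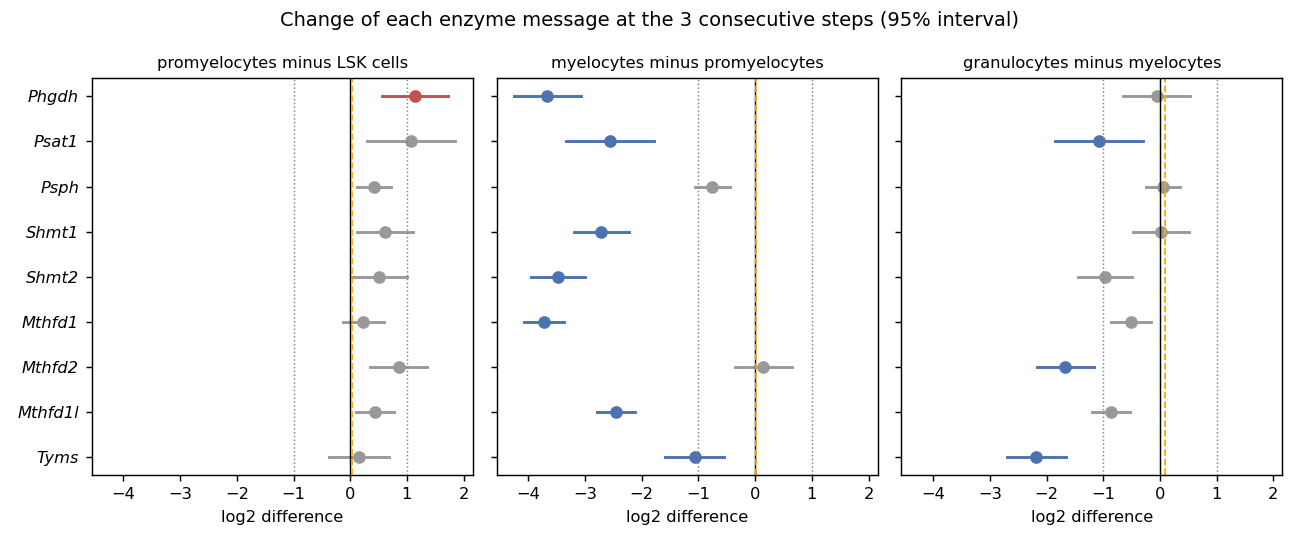
Log2 difference of each of the 9 messages (x axis) at the 3 consecutive steps, with its 95% interval. Red points were called higher, blue points called lower and grey points not called. Dotted lines mark a fold of 2 and the orange line the median of all 19937 genes, and the 7 blue points of the middle panel run from -1.07 to -3.72.

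At the step from LSK cells to promyelocytes all 9 differences were above 0 (0.16 to 1.14, median 0.51), but only that of Phgdh was called, against 1.61% of all genes called higher and 2.75% called lower, and a median of 0.04. The arrays of 4 genes did not overlap between these stages (Phgdh, Psph, Shmt1 and Mthfd2), as for 26.4% of all genes. Of the single arrays, LSK 1 was above its stage mean for 9 of 9 genes, LSK 3 for 1 and promyelocyte 3 for 0, so the values of a stage were not independent between genes. The summed promyelocyte marker level also differed among the LSK arrays, at 13.005, 13.523 and 11.284. Without LSK array 1 or without promyelocyte array 3, Psat1 was called as well (1.51 and 1.48), and without LSK array 2 or 3 none was.

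At the myelocyte step 7 of 9 were called lower and none higher, where 9.87% of all genes were called lower and 7.61% higher. Their median was -2.56 against 0.01 for all genes, and the arrays of 8 did not overlap, against 44.0% of all genes. At the granulocyte step 3 were called lower (Tyms, Mthfd2 and Psat1) and none higher, with 5.96% of all genes lower and 2.35% higher (1188 and 469 genes, or 886 and 635 with 75th percentile centring). The median was then -0.87 against 0.09, and 6 of 9 did not overlap, against 44.2%.

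Comparisons that skip a stage share arrays with those above. From promyelocytes to granulocytes 8 were called lower and only Psph was not (-0.70 ± 0.14, adjusted p = 0.000643), with 16.3% of all genes lower and 10.1% higher. The falls ran from 1.53 for Mthfd2 (2.88-fold) and 2.70 for Shmt1 (6.48-fold) to 4.24 for Mthfd1 (18.8-fold), beside the bound given for Shmt2. From LSK cells to granulocytes 7 were called lower, where 16.5% of all genes were lower and 9.59% higher (3293 and 1912 genes, or 2781 and 2440 with 75th percentile centring). Psph (-0.28, adjusted p = 0.108) and Mthfd2 (-0.68, adjusted p = 0.0254) were not called. From LSK cells to myelocytes 6 were called lower, beside 10.8% of all genes lower and 7.74% higher, and Psph (-0.33), Tyms (-0.91) and Mthfd2 (0.99) were not.

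The share of the whole promyelocyte-to-granulocyte fall that had taken place by the myelocyte stage describes the timing. It was 98.5% for Phgdh, 87.9% for Mthfd1, 78.1% for Shmt2, 73.9% for Mthfd1l and 70.5% for Psat1 on the log2 scale, with the Shmt2 share resting on a dim granulocyte level. Shmt1 (101%) and Psph (107%) had no further fall. Tyms stood at 32.9% and Mthfd2 at -9.32%. Among 18 cell cycle genes the median share was 31.2% (-4.96% to 59.7%). The share of Tyms lay within their range and those of the 7 genes named before it above. In myelocytes, however, Phgdh, Shmt1, Mthfd1 and Shmt2 already had means of 5.05, 5.12, 5.17 and 5.22, little above the dim level of 4.51. The cell cycle genes then stood at 6.45 (Ccne2) to 10.14 (Mki67), with more room for a later fall. The shares are thus not on equal terms, and that of Psph is part of a change that was not called.

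**Figure D3:**
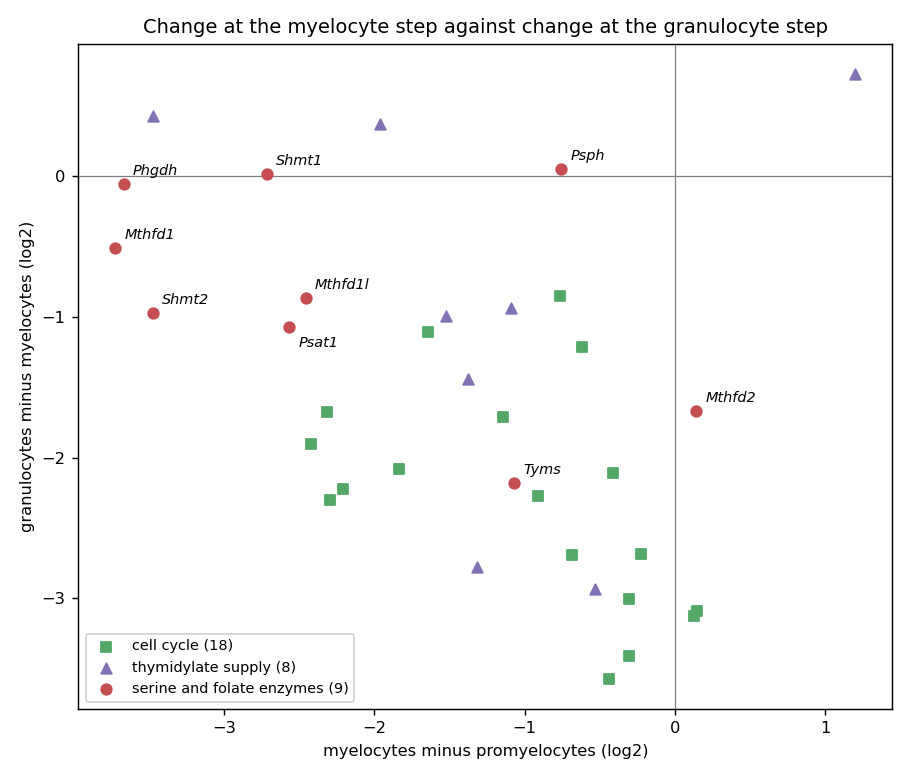
Log2 difference at the myelocyte step (x axis) against that at the granulocyte step (y axis) for the 9 enzymes, 18 cell cycle genes and 8 thymidylate supply genes, each point a gene. Phgdh, Mthfd1, Shmt1, Shmt2, Psat1 and Mthfd1l lie to the left with second changes between -1.08 and 0.02, and Tyms and Mthfd2 lie lower, among or beside the cell cycle genes.

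To compare related enzymes, the difference between the messages was taken within each array, so that its changes between stages could be followed; the level of a single difference depends on both probe sets and was not read. An exact permutation F test over all 15400 ways of assigning the 12 arrays to the stages was applied to 4 pairs, with p adjusted over the 4, and the smallest p that it can give is 6.49e-05. Mthfd2 minus Mthfd1 had stage means of -2.30 in LSK cells, -1.68 in promyelocytes, 2.18 in myelocytes and 1.02 in granulocytes (exact p = 6.49e-05, adjusted 0.00026). At the myelocyte step the changes of these 2 genes differed by 3.86 (95% interval 3.20 to 4.53), and at the granulocyte step by -1.16 (-1.82 to -0.49). For Mthfd1l minus Mthfd1 the means were -0.35, -0.14, 1.12 and 0.77 (exact p = 0.000779, adjusted 0.00121), and the changes at the myelocyte step differed by 1.27 (0.91 to 1.62). On the log2 scale both mitochondrial messages thus lost less at that step than Mthfd1.

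Mthfd2 was also set against Mthfd2l, a mitochondrial relative with similar activity. The difference had means of 0.27, 1.33, 2.11 and 0.70 (exact p = 0.000909, adjusted 0.00121), and Mthfd2l itself had stage means of 6.09, 5.88, 5.24 and 4.99, without the rise of Mthfd2. Shmt2 minus Shmt1 had means of 0.96, 0.86, 0.10 and -0.89 (exact p = 0.00734, adjusted 0.00734). For this pair the changes at the myelocyte step differed by -0.76 (-1.58 to 0.06), an interval that includes 0, and those at the granulocyte step by -0.99 (-1.81 to -0.17), where Shmt2 was dim. With 3 arrays against 3 an exact test of 1 step cannot go below 0.1.

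**Figure D4:**
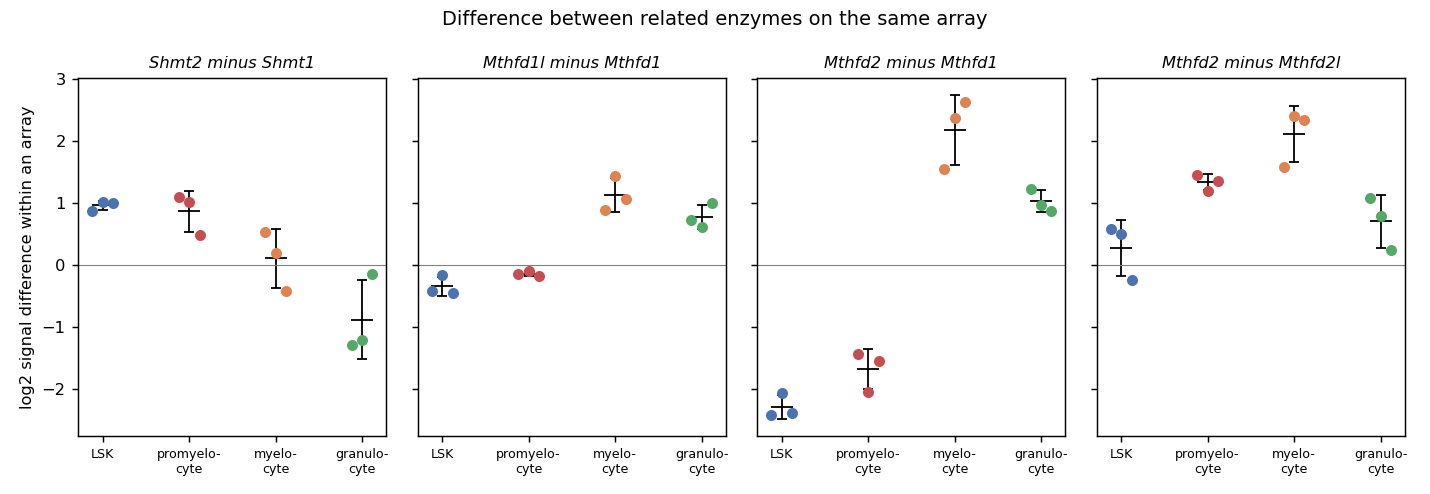
Log2 difference between 2 related messages on the same array (y axis) by stage (x axis) for 4 pairs, with points for arrays and bars for the mean ± SD of 3. Mthfd2 minus Mthfd1 rises from -1.68 in promyelocytes to 2.18 in myelocytes, and Shmt2 minus Shmt1 declines from 0.96 to -0.89; the 0 line has no meaning for a pair of probe sets.

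Of the other folate enzymes some fell and some were not called. Beside the counts of this and the later lists stand the shares over all genes. At the myelocyte step 9.87% were called lower and 7.61% higher, and at the granulocyte step 5.96% and 2.35%. Of the 10 tested, none was called between LSK cells and promyelocytes, and 4 fell at the myelocyte step: the purine synthesis enzymes Atic (-3.39 ± 0.18) and Gart (-2.57 ± 0.15), which use formyl-folate, the folate polyglutamate synthase Fpgs (-2.35 ± 0.20), and Mtfmt (-1.2, and -0.998 without a call after cyclic loess scaling), which formylates the initiator methionyl-tRNA of mitochondria. The median of the 10 was -0.61 at that step. Atic fell again at the granulocyte step (-1.27 ± 0.18), the only one of the 10 called there. Ggh, which removes the glutamate tail from folate, had stage means of 7.07, 7.27, 7.79 and 8.08 and was called higher in granulocytes than in LSK cells (1.02), though not without LSK array 3 (0.91) or granulocyte array 2 (0.86).

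Among 5 folate carriers, the plasma membrane carrier Slc19a1 fell at the myelocyte step (-1.09), but was under the fold with quantile (-0.85) and cyclic loess scaling (-0.89), with array weights (-0.88), and without myelocyte array 1 (-0.997) or promyelocyte array 3 (-0.92). The mitochondrial carrier Slc25a32 was lower in granulocytes than in promyelocytes (-1.34; -0.94 and not called with quantile scaling). Slc46a1 had stage means of 4.98, 5.53, 4.92 and 4.96, and the receptors Folr1 and Folr2 lay under the dim level in every stage. Of the 4 glycine cleavage genes, whose products make a 1-carbon unit from glycine, Gcsh had means of 5.87 and 5.91 in LSK cells and promyelocytes and was dim later (3.25 and 3.02), a fall of at least 2.65-fold at the myelocyte step. The decarboxylase Gldc was dim throughout, Amt had means of 5.01, 4.60, 4.44 and 4.47, and Dld, which other complexes share, had means of 8.13, 8.62, 8.39 and 7.52.

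Of 9 tested genes of serine and glycine use and transport, 2 fell at both steps: Sfxn1, a mitochondrial serine carrier (-1.24, then -2.20), and Slc1a5, a plasma membrane carrier of neutral amino acids (-1.46, then -1.70). Sptlc2, a subunit of the serine palmitoyltransferase that starts sphingolipid synthesis, had stage means of 8.08, 9.02, 9.65 and 9.40. It was called higher than in LSK cells in myelocytes (1.56) and granulocytes (1.32). None of its consecutive steps was called, though the promyelocyte step (0.93) was with median centring (1.02). Of 15 tested methionine cycle genes, 4 fell at the myelocyte step: Mtap of methionine salvage (-1.96), methionine synthase Mtr (-1.88), its reductase Mtrr (-1.75), and Chdh of choline oxidation (-1.42), which had risen at the promyelocyte step (1.6). Mat2a and Ahcy were not analysed here. The median of these 15 was -0.18 at the myelocyte step. It rested on genes with little room to fall. Bhmt, Bhmt2, Cbs, Cth, Dmgdh, Gnmt, Mat1a and Sardh had promyelocyte means of only 3.39 (Dmgdh) to 5.33 (Cbs). The median is therefore not a like comparison with that of the 9 enzymes.

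**Figure D5:**
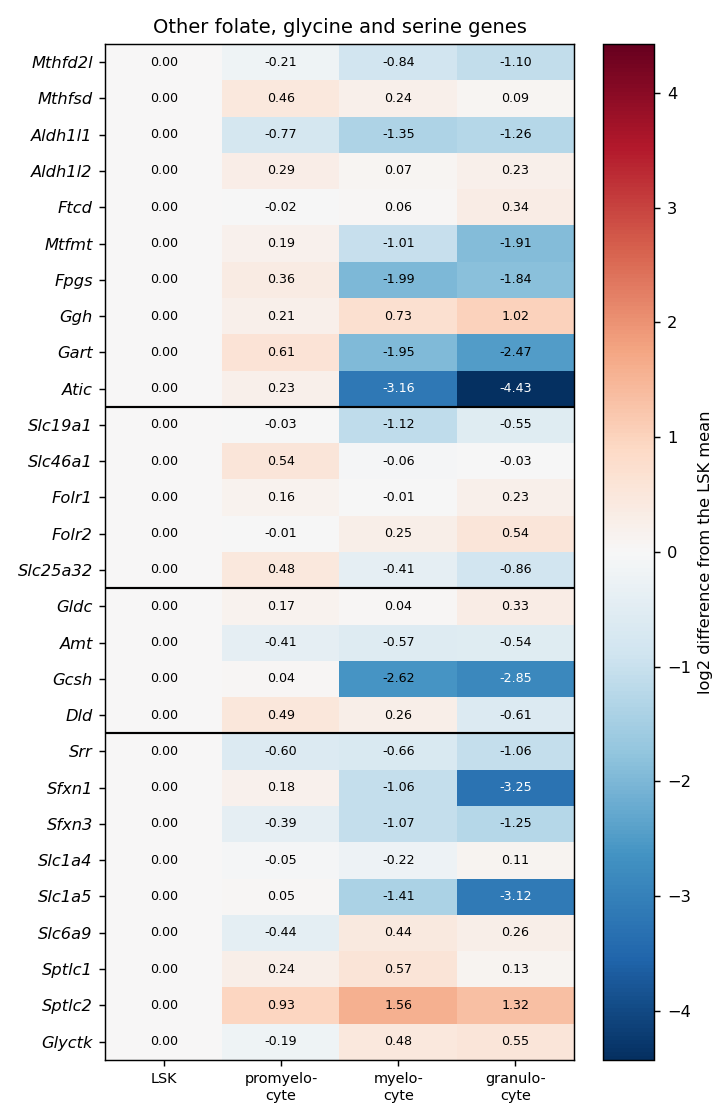
Stage means of 28 other folate, folate transport, glycine cleavage and serine genes (rows, lists separated by black lines), as log2 differences from the LSK mean (colour and printed value). Atic (-4.43), Sfxn1 (-3.25) and Slc1a5 (-3.12) are lowest in granulocytes, and Sptlc2 and Ggh are above 0.

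Of 8 tested thymidylate supply genes, 6 were called lower at the myelocyte step, from the deaminase Dctd (-3.47) and the pyrophosphatase Dctpp1 (-1.96) to Tk1 (-1.09), while the mitochondrial kinase Tk2 was called higher (1.2). The Tk1 call was lost without myelocyte array 1 (-0.84), promyelocyte array 1 (-0.92) or promyelocyte array 2 (-0.96). At the granulocyte step 3 fell, the ribonucleotide reductase subunits Rrm2 (-2.94) and Rrm1 (-2.78) and the kinase Dtymk (-1.44). Of 18 cell cycle genes, 7 were called lower at the myelocyte step, namely Mcm2 to Mcm7 (-1.65 to -2.42) and Pcna (-1.14), and 17 at the granulocyte step. Pcna lost its call without myelocyte array 1 (-0.72), promyelocyte array 1 (-0.96) or promyelocyte array 2 (-1.002). Their medians were -0.73 and -2.25, the reverse of the order for the 9 enzymes (-2.56 and -0.87). Several of the enzymes were by the myelocyte stage little above the dim level, which limits this contrast. The proliferation marker Mki67 held means of 10.08, 10.01 and 10.14 up to myelocytes and 7.01 in granulocytes.

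Myc and Atf4 are transcription factors known to act on genes of this pathway. Myc had means of 10.79 in LSK cells, 10.14 in promyelocytes, 5.73 in myelocytes and 4.58 in granulocytes, and fell by 4.41 at the myelocyte step. Its call at the granulocyte step (-1.15) was lost without myelocyte array 1 (-0.88) and with 75th percentile centring (-0.98). Mycn was lower in promyelocytes than in LSK cells (-2.71), Mycl stayed between 5.06 and 5.27, and Max, the partner of Myc, rose by 1.32 at the myelocyte step. Atf4, which drives amino acid synthesis genes including Phgdh, Psat1 and Mthfd2 under amino acid shortage, had means of 8.07, 8.22, 8.54 and 8.46, and none of its steps was called. Of 14 tested genes of the amino acid response, 2 were called higher at the myelocyte step, Asns (1.23) and Slc7a11, and 2 lower, Aldh18a1 (-2.87) and Slc7a5 (-2.72). Over all genes 7.61% were called higher and 9.87% lower at this step. Slc7a11, the cystine carrier, was dim in LSK cells and promyelocytes (3.53 and 4.24) and had means of 6.50 in myelocytes and 8.72 in granulocytes. At the granulocyte step 3 rose, Sesn2 (2.23), Slc7a11 (2.22) and Ddit3 (1.06), the last not called without granulocyte array 1 (0.98) or myelocyte array 1 (0.996). Of the glycolytic genes upstream of Phgdh and beside it, Pgk1 (10.48 to 11.07), Pgam1 (8.95 to 9.86) and Pkm (9.97 to 11.40) were not called at any consecutive step, and Gapdh and Eno1 were not analysed here. Pkm was called higher than in LSK cells in myelocytes (1.16) and granulocytes (1.43), but under the fold with quantile (0.79 and 0.91) and cyclic loess scaling (0.62 and 0.78).

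Across the 12 arrays, which share 4 stages and so are not 12 independent points, the closest pairs of the 9 were Shmt2 with Mthfd1l (Pearson r = 0.993), Shmt2 with Mthfd1 (0.986) and Mthfd1 with Mthfd1l (0.984). Mthfd2 correlated with the other 8 at 0.26 to 0.65. The genes outside the 9 with the most similar pattern are given as a description. They were C1qbp, Hspe1 and Utp20 for Mthfd1 (r = 0.998, 0.998 and 0.997), Thada, Umps and Pinx1 for Shmt2 (0.996, 0.996 and 0.995), and Nme1, Nsun2 and Dtwd1 for Mthfd1l (0.997, 0.997 and 0.996). For Phgdh they were Polr3d, Zfp111 and Slc16a1 (0.984, 0.983 and 0.982), for Psat1 Mrps27, Top3a and Tbl3 (0.990, 0.988 and 0.987) and for Shmt1 Sccpdh, Urb1 and Tfpi (0.987, 0.987 and 0.983). Tyms was closest to Asf1a, Atad2 and Tipin (0.988, 0.986 and 0.985), and Psph to Sgsm3, Pcyox1l and Angptl4 (0.981, 0.966 and 0.962). The nearest genes to Mthfd2, namely Atp5h, Mrps18c and Rpia, reached 0.949, 0.946 and 0.942, below the first values of the other 8.

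Genes of other cell types differed between the stages that carry these results. The log2 of the summed signal of 8 monocyte and macrophage markers was 9.37 to 10.66 in LSK cells, 12.01 to 12.75 in promyelocytes, 10.21 to 11.67 in myelocytes and 10.71 to 10.86 in granulocytes. These markers did not move together: at the granulocyte step 3 were called higher and 5 lower. Csf1r, Cd68 and Adgre1 were highest in granulocytes (9.26, 9.22 and 7.95). Ccr2, Ly86, F13a1 and Ms4a6c had means of 5.62, 5.80, 6.00 and 6.31 there. That of 7 eosinophil markers was 12.16, 8.90 and 12.57 on the promyelocyte arrays and between 7.64 and 9.08 on all others. On promyelocyte arrays 1 to 3, in this order, 8, 7 and 0 of the 9 enzyme genes were above their stage means. The 5 T and NK cell markers summed to 10.37 to 11.12 in promyelocytes, 8.89 to 9.99 in LSK cells and at most 8.32 later. This sum followed 1 gene, Nkg7 (stage means 9.31, 10.74, 7.36 and 5.34), while Il7r was lower in promyelocytes (3.72) than in LSK cells (5.81) and the median difference of the 5 between these stages was -0.35. The erythroid and B cell sums reached their highest values in LSK cells (up to 10.63 and 9.49). The erythroid sum followed Car1 (LSK mean 9.37), with Klf1, Epor and Epb42 at 4.87, 5.49 and 4.70 there. The part of these other cells in the stage differences was not tested.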

How the data were processed

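Total RNA (300 ng) was labelled with biotin and hybridised to 1-colour arrays, and the authors deposited log2 values after RMA, made with justRMA in R, for 34760 rows. The genome build of the array design is not given in the sources used here. Of these rows, 21640 carry 1 gene symbol, 1321 several and 11799 none in the platform annotation. For each gene the row with the highest mean was kept (954 genes had several), which gave 19937 genes. One linear model over the 12 arrays and 4 stages was fitted with limma 3.58.1 in R 4.3.3 (empirical Bayes, 8 residual and 7.02 prior degrees of freedom), tested on simulated data. The number of arrays, 3 a stage, limits the precision. The files give no batch, and 0 columns belong to no sample.

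The 9 genes and all gene lists were chosen with earlier results of these data known. From the wider lists, up to 4 called genes with the largest rise or fall were named per comparison, and all genes of lists of 5 or fewer, together with the 3 genes most correlated with each member. Genes named outside this rule (Ggh, Mki67, Atf4, Mthfd2l, Tk1 and Pcna among them) were chosen after their values were seen. Fold bounds used the dim level in place of a mean under it. Promoter windows came from RefSeq tables of GRCm38.p6, and gene coordinates were not otherwise used. No 2 arrays held identical values. Alternatives covered scaling, row choice, low-level filter, thresholds, spread model, array weights, replicate block and leaving out each array.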

Additional observations from a re-analysis of the deposited data

How the results depend on the processing

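The counts of genes called at the myelocyte step, from promyelocytes to granulocytes, and from LSK cells to granulocytes or to myelocytes stayed within a factor of 1.5 under every alternative run, as did the 9 genes passing the F test and the 4 related pairs. From LSK cells to promyelocytes the count of 1 became 2 without a fold threshold, with unadjusted p and with array weights, 0 with the Phgdh row shared with Gm6756 (chosen after seeing the data), and 0 to 2 when each array was left out. At the granulocyte step the count of 3 became 6 without the fold threshold. Equal replicate numbers did not pair the arrays over all stages (correlations of deviations -0.25 to 0.25, with 7 of 18 over 0.1). They all exceeded 0.1 between promyelocytes and myelocytes (0.184, 0.118 and 0.196), and 8 of 12 arrays correlated best with their own number. With the replicate number as a block, 7 genes were still called at the myelocyte step, and from LSK cells to promyelocytes the count was 2, Psat1 being added.

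Signs turned, among the 9 genes, only where the difference was not called. At the granulocyte step Shmt1 was -0.0025 with median centring and ran from -0.158 to 0.322 when each array was left out. Phgdh was 0.11 with 75th percentile centring and 0.074 with cyclic loess, and ran from -0.234 to 0.205 with arrays left out, and Psph from -0.068 to 0.139. Psph was 0.21 from LSK cells to granulocytes with quantile scaling. With arrays left out, Tyms at the promyelocyte step ran from -0.099 to 0.452 and Mthfd2 at the myelocyte step from -0.116 to 0.378. Shmt2 passed the fold at the granulocyte step with quantile scaling (-1.15), array weights (-1.06), and without myelocyte array 3 (-1.14) or granulocyte array 3 (-1.03), and Tyms passed it from LSK cells to myelocytes without LSK array 2 (-1.12) or myelocyte array 3 (-1.03). The cause of these changes was not tested. Centring on the 75th percentile moved the median of all genes from 0.09 to 0.25 at the granulocyte step, from 0.13 to 0.36 from promyelocytes to granulocytes, and from 0.17 to 0.39 from LSK cells to granulocytes. Signals near the dim level, as for Shmt2 in granulocytes, limit what a fold can show.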
